A study of Mus musculus with 18 samples.

Results

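Transcripts of 5 dynein light chain genes were followed in mouse dorsal root ganglion (DRG) neuron cultures that carried either both working copies or 1 working copy of Dynlrb1. The genes were Dynlrb1 itself, Dynlrb2, Dynll1, Dynll2 and Dynlt3, picked by symbol from the deposited table, and all 5 were among its 17198 genes. RNA was sequenced from wild-type (WT) cultures and from cultures heterozygous for the tm1a allele of Dynlrb1, labelled Dynlrb1(tm1a/+) and called HET here. Cultures were collected at 12, 24 and 48 h, with 3 biological replicates for each genotype and time, 18 samples in all. No drug or other agent is named in the labels. A tm1a allele is a knockout-first allele: a gene-trap cassette placed in an intron is meant to interrupt the transcript in every cell that carries it, so non-neuronal cells of a HET culture carry it too. Strain, age, sex and the number of animals per culture are not given in the sources used here, and p-values therefore measure the spread between these 18 samples.

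Cytoplasmic dynein 1 is the motor that moves cargo along microtubules toward the cell body, and in sensory neurons it carries signals and organelles back along the axon. Its heavy chains hold the motor domains, and its intermediate chains carry 3 kinds of light chain dimer at separate sites: roadblock (DYNLRB1 or DYNLRB2), LC8 (DYNLL1 or DYNLL2) and TCTEX (DYNLT1 or DYNLT3). LC8 proteins also bind many partners outside dynein. The question asked of these genes was whether any other light chain rose where Dynlrb1 was reduced.

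The closest relatives within each kind are similar enough that their reads could in principle be mixed, so their coding sequences, read from GENCODE M21 transcripts on GRCm38, are shown with the bases that differ between the pair in capitals. The roadblock pair reads
Dynlrb1: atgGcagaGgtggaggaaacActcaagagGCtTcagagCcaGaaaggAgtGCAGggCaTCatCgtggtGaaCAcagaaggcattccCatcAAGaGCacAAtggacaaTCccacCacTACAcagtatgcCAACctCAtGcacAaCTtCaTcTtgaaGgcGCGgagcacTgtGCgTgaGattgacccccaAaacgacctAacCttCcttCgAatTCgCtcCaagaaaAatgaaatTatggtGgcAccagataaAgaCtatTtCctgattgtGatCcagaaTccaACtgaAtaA
Dynlrb2: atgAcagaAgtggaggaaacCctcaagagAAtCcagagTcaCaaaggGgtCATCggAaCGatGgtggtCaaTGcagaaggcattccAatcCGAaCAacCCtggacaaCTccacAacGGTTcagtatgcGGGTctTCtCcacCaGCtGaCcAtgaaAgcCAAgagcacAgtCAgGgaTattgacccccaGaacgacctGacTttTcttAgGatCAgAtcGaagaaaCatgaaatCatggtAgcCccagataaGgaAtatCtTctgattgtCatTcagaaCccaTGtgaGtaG
and the LC8 pair reads
Dynll1: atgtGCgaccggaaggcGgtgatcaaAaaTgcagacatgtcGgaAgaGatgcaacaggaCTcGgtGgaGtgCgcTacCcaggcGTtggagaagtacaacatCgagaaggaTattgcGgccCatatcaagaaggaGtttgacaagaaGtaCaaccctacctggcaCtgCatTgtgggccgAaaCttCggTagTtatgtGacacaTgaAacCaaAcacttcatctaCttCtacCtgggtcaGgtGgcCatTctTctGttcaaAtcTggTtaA
Dynll2: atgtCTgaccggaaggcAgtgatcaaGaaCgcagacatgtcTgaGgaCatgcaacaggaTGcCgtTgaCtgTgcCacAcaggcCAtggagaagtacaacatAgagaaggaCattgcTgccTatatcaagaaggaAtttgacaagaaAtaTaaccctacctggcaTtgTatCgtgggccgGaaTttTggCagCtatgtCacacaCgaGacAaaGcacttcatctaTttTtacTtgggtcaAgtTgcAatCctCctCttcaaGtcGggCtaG
The roadblock coding sequences were both 291 bases long and identical at 209 of them (71.8%), with no identical stretch longer than 13 bases. The LC8 coding sequences were both 270 bases long and identical at 219 (81.1%), with no identical stretch longer than 16 bases. Of the 51 bases that differed between Dynll1 and Dynll2, 46 fell at the third codon base. For the roadblock pair this was 53 of 82. No run of 50 bases from the transcripts shown for Dynlrb1, Dynlrb2, Dynll2 or Dynlt3 occurred on the same strand in a transcript of any other gene. In Dynll1, 60 of 1981 such runs (3.03%) did, shared with transcripts of 209 other genes, and Dynll2 was not among them. Reads of that length could thus be told apart between the members of either pair. The length of the study's reads and the authors' handling of shared reads are not given in the sources used here.

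On GRCm38, Dynlrb1 (ENSMUSG00000047459) lies at chr2:155236533-155250277 on the plus strand and Dynlrb2 (ENSMUSG00000034467) at chr8:116504974-116515915 on the plus strand. Dynll1 (ENSMUSG00000009013) lies at chr5:115297110-115300999 on the minus strand and Dynll2 (ENSMUSG00000020483) at chr11:87979525-87987533 on the minus strand. Dynlt3 (ENSMUSG00000031176) lies at chrX:9654267-9663003 on the minus strand. No other gene annotated there overlapped any of the 5. The transcripts used had 4, 4, 3, 3 and 5 exons in that order of genes.

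The levels that follow are the authors' normalized counts unless FPKM (fragments scaled to transcript length and library total) is named. Sequencing depth is unknown, because the deposited columns were adjusted to nearly the same total, from 41509705 to 41509874. Across genes, replicates within a group had a Pearson r of 0.978 to 0.992. The cultures carried the markers of their labelled cells. The 16 sensory neuron markers summed to between 5514 and 8549 FPKM per sample, and 10 Schwann and satellite glia markers to between 470 and 694. Markers of fibroblasts summed to between 39.9 and 155, endothelial cells to between 24.1 and 69.6, macrophages (5 of 6 measured) to between 13.9 and 81.5 and proliferating cells to between 2.03 and 20.7. In bulk RNA, fewer cells of a type and less RNA per cell cannot be told apart.

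Dynlrb1, the targeted gene, separated the genotypes completely, with HET below WT at all 3 times. At 12 h its normalized counts were 6674, 6589 and 5321 in WT replicates 1, 2 and 5, and 3298, 4087 and 3414 in the HET replicates of the same numbers. At 24 h they were 5702, 5229 and 6427 in WT and 2716, 3811 and 3085 in HET. At 48 h, in replicates 1, 2 and 3, they were 5995, 5677 and 6372 in WT and 3314, 3482 and 3243 in HET. The lowest WT culture of all, at 5229, stood above the highest HET culture of all, at 4087. Over all genes, 0.0349% (6 genes) were below WT without overlap at all 3 times.

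The HET level of Dynlrb1 was 58.2% of WT at 12 h, 55.0% at 24 h and 55.7% at 48 h. On the log2 scale the difference was -0.78 at 12 h (95% interval -1.04 to -0.52), -0.86 at 24 h (-1.12 to -0.60) and -0.84 at 48 h (-1.11 to -0.58). Averaged over the times it was -0.83 (-0.98 to -0.68), with an adjusted p of 2.85e-05 in limma over all genes. No other member passed in any comparison of the genotypes, and in the averaged one 0.0174% of all genes did. An exact two-sided permutation test within time points gave p = 0.00025 for Dynlrb1, the smallest that its 8000 arrangements allow. This test shuffled genotype at each time separately, so it took cultures of different times as independent, also where they share a replicate number. At single times the limma adjusted p was 0.0655, 0.0390 and 0.0501, so only 24 h passed 0.05, and that call was lost without any 1 of 5 of its 6 libraries (all but HET replicate 2). At these times 0.00581%, 0.00581% and 0% of all genes passed (at 48 h, 3782 genes or 22% had an unadjusted limma p under 0.05), and Dynlrb1 had the second smallest p at 12 h and the smallest at 24 and 48 h. The replicate number as a block paired same-numbered samples of the genotypes at each of the 3 times in a single fit. With it the 48 h limma adjusted p for Dynlrb1 was 0.00208 while the count of genes passing at 48 h rose from 0 to 2120 (12.3%). In the authors' deposited table the adjusted p for Dynlrb1 was 1.48e-04, 1.25e-05 and 1.12e-05 at the 3 times, where 4, 2 and 1028 genes were called. Gene-level values sum all exons, and which exons the remaining signal came from was not analysed here.

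**Figure D1:**
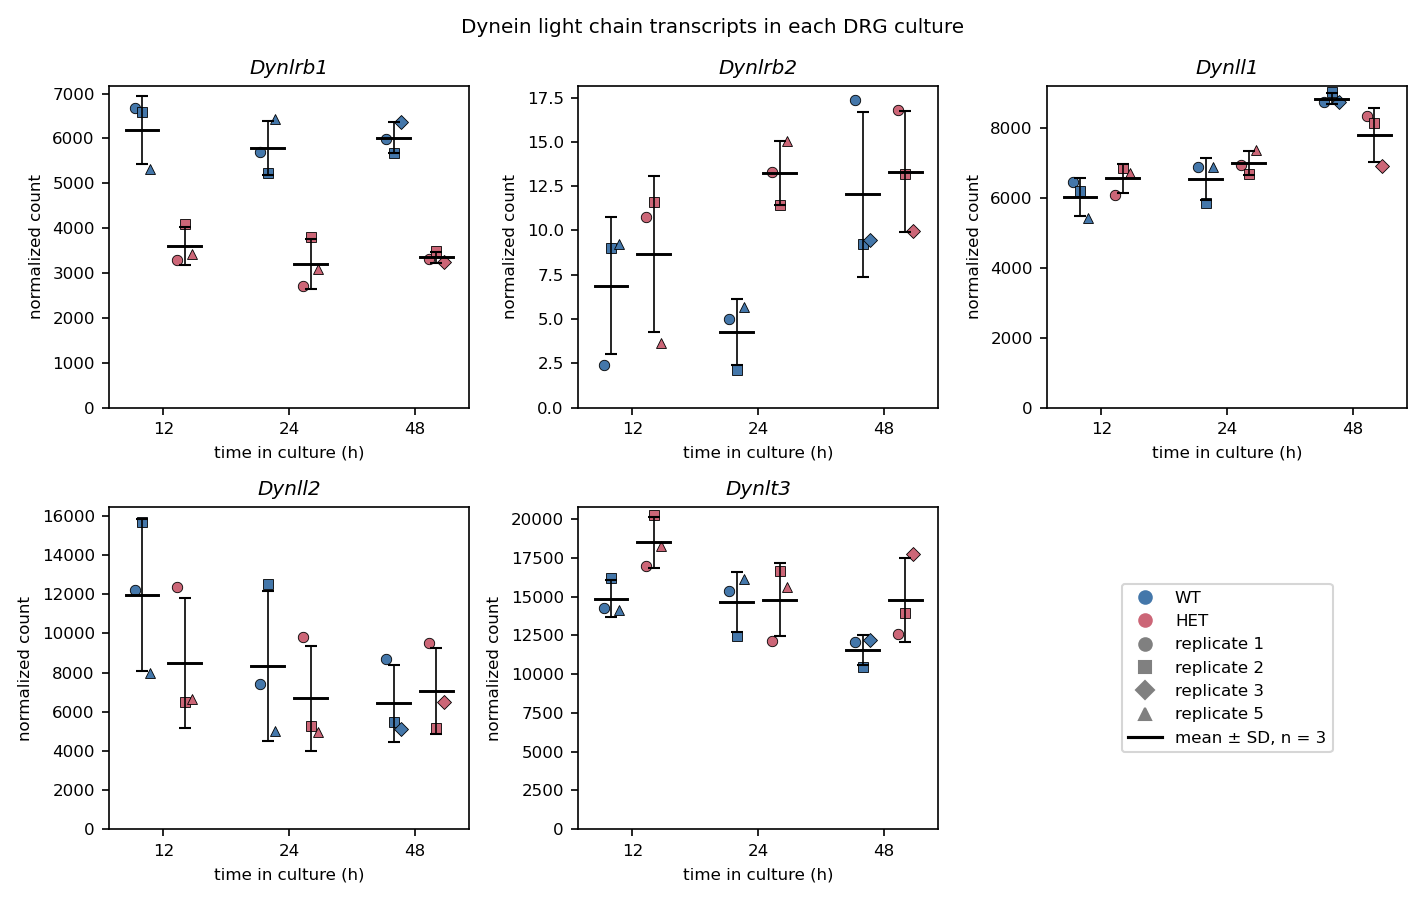
Normalized counts of the 5 light chain genes (y axes, each from 0) in every culture against time in culture (x axes, h), with WT and HET side by side, one marker shape per replicate number, and bars for mean ± SD (n = 3). All 9 HET points of Dynlrb1 lie below all 9 WT points, Dynlt3 points of HET lie above WT at 12 and 48 h, and Dynlrb2 stays under 18.

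Dynlrb2, the other roadblock chain, was barely detected in either genotype. Roadblock chain 2 is known from tissues with motile cilia. Its normalized counts at 12 h were 2.40, 9.0 and 9.24 in WT and 10.8, 11.6 and 3.63 in HET. At 24 h they were 5.0, 2.14 and 5.69 in WT and 13.3, 11.4 and 15.03 in HET. At 48 h they were 17.4, 9.24 and 9.48 in WT and 16.8, 13.2 and 9.97 in HET. The groups overlapped at 12 and 48 h and did not overlap at 24 h, where HET was higher, as were 2.81% of all genes by the same measure. The 48 h WT replicate 1 was the highest sample of all 18.

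The log2 difference of Dynlrb2 between HET and WT was 0.33 at 12 h (95% interval -0.72 to 1.38), 1.5 at 24 h (0.45 to 2.55) and 0.16 at 48 h (-0.89 to 1.21). The 24 h difference had an unadjusted p of 0.00786, and 0.302% of all genes were higher at that time with an unadjusted p under 0.05. Over all genes, limma gave it an adjusted p of 1.0. In the authors' deposited table the 24 h value was 1.61, with an adjusted p of 1. Averaged over the times the difference was 0.66 (0.056 to 1.27), with a limma adjusted p of 0.335. None of these passed.

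Per length, the level of Dynlrb2 was far below what HET cultures lacked of Dynlrb1. Its mean over all samples was 0.456 FPKM, against 165 FPKM for Dynlrb1, and only 18.9% of genes had a lower mean FPKM. At 24 h the mean of Dynlrb2 was 0.200 FPKM in WT and 0.620 in HET, a difference of 0.420 FPKM, beside a Dynlrb1 difference of -90.7 FPKM at the same time. As a share of the summed FPKM of both roadblock genes, Dynlrb2 at 24 h made up 0.0964% ± 0.0360 in WT and 0.564% ± 0.144 in HET (SD, 3 cultures each). The share in HET was 0.317% ± 0.154 at 12 h and 0.527% ± 0.134 at 48 h, against 0.153% ± 0.0945 and 0.266% ± 0.103 in WT. Since Dynlrb1 is part of the sum, this share is higher in HET even with Dynlrb2 unaltered. Of 15 motile cilium genes listed, 13 were measured and 0 passed in any genotype comparison, where at most 0.0174% of all genes did. With the replicate block, under which 12.3% of all genes passed, 2 of the 13 rose and 1 fell at 48 h. Their summed level ran from 16.9 to 20.9 FPKM over all samples, with WT from 16.9 to 19.0 and HET from 18.4 to 18.6 at 24 h.

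Dynll1, the first LC8 chain, had nearly the same level in both genotypes. At 12 h its normalized counts were 6445, 6211 and 5422 in WT and 6079, 6868 and 6730 in HET. At 24 h they were 6882, 5846 and 6889 in WT and 6937, 6700 and 7386 in HET. At 48 h they were 8753, 9027 and 8762 in WT and 8350, 8142 and 6920 in HET. The groups overlapped at 12 and 24 h. At 48 h every HET culture was below every WT culture, as were 14.4% of all genes, with HET replicate 3 farthest from the rest.

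The log2 difference of Dynll1 between HET and WT was 0.12 at 12 h (95% interval -0.07 to 0.32), 0.10 at 24 h (-0.09 to 0.30) and -0.19 at 48 h (-0.38 to 0.011). Averaged over the times it was 0.014 (-0.10 to 0.13), with a limma adjusted p of 0.928. The upper bound of that interval corresponds to a HET level of 1.09 times WT. The 48 h value was -0.10 without HET replicate 3. That culture also had the lowest summed level of the 5 proliferation markers among the 48 h samples, 3.43 FPKM against 9.66 and 14.2 in the other HET cultures and 10.6 to 20.7 in WT. With the replicate block at 48 h, under which 12.3% of all genes passed, 3 of these 5 markers were lower in HET. The part of these markers in the result was not tested.

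Dynll2, the second LC8 chain, varied between cultures of 1 group more than the other abundant members did. Its normalized counts at 12 h were 12233, 15708 and 7969 in WT and 12351, 6508 and 6625 in HET. At 24 h they were 7436, 12550 and 5010 in WT and 9796, 5281 and 4964 in HET. At 48 h they were 8691, 5483 and 5118 in WT and 9514, 5190 and 6472 in HET. Replicate 1 was the highest HET culture at each time, while the highest WT culture was replicate 2 at 12 and 24 h and replicate 1 at 48 h. The genotypes overlapped at every time.

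The log2 difference of Dynll2 between HET and WT was -0.51 at 12 h (95% interval -1.27 to 0.25), -0.29 at 24 h (-1.05 to 0.47) and 0.13 at 48 h (-0.63 to 0.89). Averaged over the times it was -0.22 (-0.66 to 0.22), with a limma adjusted p of 0.644. These intervals are wide, and the averaged one leaves room for a HET level from 0.632 to 1.16 times WT.

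Dynlt3, the TCTEX chain of the set, was higher in HET at 12 and 48 h but did not pass the test. At 12 h its normalized counts were 14246, 16225 and 14144 in WT and 17002, 20259 and 18278 in HET. At 24 h they were 15358, 12439 and 16165 in WT and 12135, 16625 and 15638 in HET. At 48 h they were 12049, 10447 and 12170 in WT and 12584, 13929 and 17779 in HET. Every HET culture was above every WT culture at 12 h, as were 7.07% of all genes, and at 48 h, as were 9.57%. At 24 h the genotypes overlapped. Over all genes, 1.24% were above WT without overlap at 2 or more times.

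The log2 difference of Dynlt3 between HET and WT was 0.32 at 12 h (95% interval 0.022 to 0.61), 0.010 at 24 h (-0.28 to 0.30) and 0.34 at 48 h (0.048 to 0.63). The unadjusted p was 0.0367 for 12 h, where 2.41% of all genes were higher with an unadjusted p under 0.05, and 0.0251 at 48 h, where 8.72% were. The limma adjusted p was 0.579 and 0.166. Averaged over the times the difference was 0.22 (0.053 to 0.39), or 1.17 times WT, with an unadjusted p of 0.0131 and a limma adjusted p of 0.313. In that comparison 5.33% of all genes were higher at an unadjusted p under 0.05. The exact two-sided permutation test within times gave p = 0.0275 for Dynlt3, as 1 of 5 genes so tested, and 0.05125 for Dynlrb2. Without HET replicate 3 the 48 h difference was 0.20. The summed FPKM of the 16 sensory neuron markers was HET 7065 to 8549 and WT 6016 to 7433 at 12 h, HET 5775 to 6357 and WT 5514 to 6424 at 24 h, and HET 6234 to 6854 and WT 5585 to 6104 at 48 h. HET replicate 3 at 48 h was highest at that time in both Dynlt3 and these markers. Of the 16, 9 were higher in HET at 12 h (median log2 difference 0.060), 5 were at 24 h (-0.07) and 12 were at 48 h (0.19). None of the 16 passed, where at most 0.00581% of all genes did at any of these times. With the replicate block at 48 h, under which 12.3% of all genes passed, 4 were higher and 1 lower. The 5 macrophage markers summed to 24.1 to 37.0 FPKM in HET and 41.0 to 81.5 in WT at 48 h, without overlap. Of all genes, 14.4% were lower in HET without overlap at that time. Over all samples Cd68 had a median of 26.2 FPKM, and the next highest of the 5, C1qa, 2.82. With the replicate block at 48 h, 1 of the 5 was lower in HET. The part of these markers in the Dynlt3 difference was not tested.

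**Figure D2:**
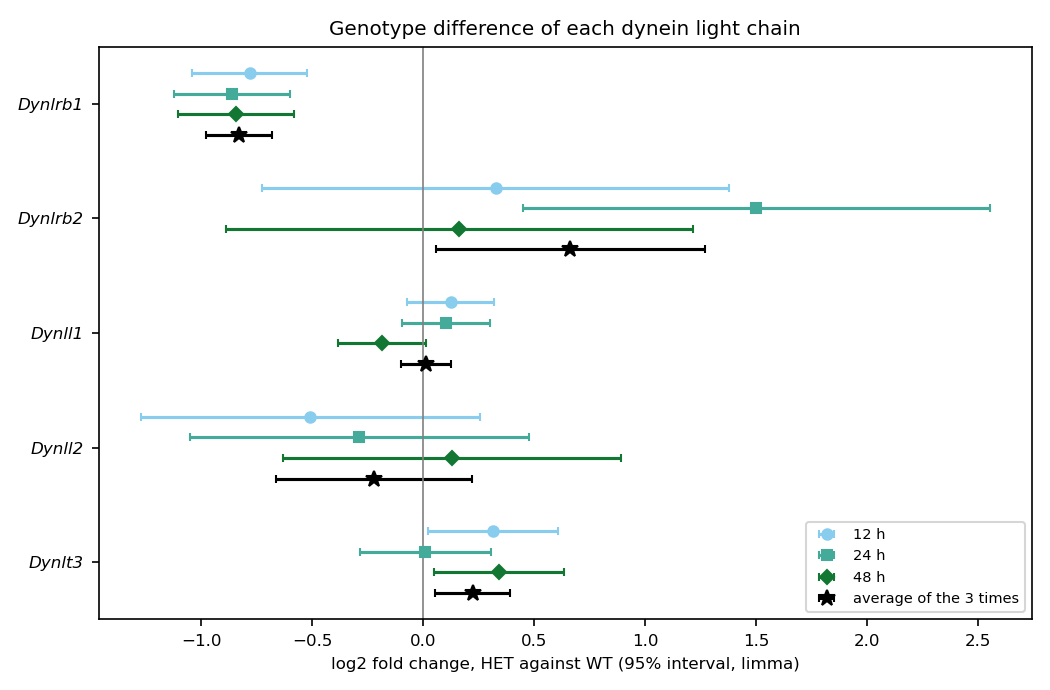
Log2 fold change of HET against WT (x axis) for each light chain gene (y axis) at 12, 24 and 48 h and averaged over the times, with 95% intervals from limma. Dynlrb1 lies between -0.86 and -0.78 at every time, the intervals of Dynll1 and Dynll2 reach 0 throughout, and the averaged values of Dynlrb2 and Dynlt3 lie above 0 without passing after adjustment.

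Levels between genes can be set side by side per length. In WT, Dynlrb1 was the most abundant of the 5 at each time, at 218, 203 and 211 FPKM against 166, 164 and 129 FPKM for Dynlt3. In HET the order was the other way, with Dynlrb1 at 126, 113 and 118 FPKM and Dynlt3 at 207, 166 and 165 FPKM. Averaged over all 18 samples, Dynll1 was at 85.0 FPKM and Dynll2 at 80.5 FPKM, both above 94% of genes, and Dynlrb2 at 0.456 FPKM stood far below them. In WT, Dynlrb1 made up 38.0% ± 1.82 (SD, n = 3) of the summed FPKM of the 5 genes at 12 h, 38.5% ± 3.21 at 24 h and 41.46% ± 2.09 at 48 h. In HET its share was 25.5% ± 2.32, 26.2% ± 3.22 and 26.4% ± 2.00.

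The sum of the 5 genes was lower in HET at each time. It was 574 ± 78.2 FPKM in WT and 496 ± 23.7 in HET at 12 h, 527 ± 11.0 and 428 ± 21.6 at 24 h, and 510 ± 29.3 and 446 ± 16.96 at 48 h (SD, 3 cultures each). The ranges of the genotypes overlapped at 12 h, with WT from 489 to 642 and HET from 470 to 517. They did not overlap at 24 h, with WT from 516 to 538 and HET from 411 to 452, or at 48 h, with WT from 478 to 536 and HET from 427 to 460.

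Without Dynlrb1, the sum of the other 4 genes differed less between the genotypes than Dynlrb1 alone did. Their HET sum minus their WT sum was 12.9 FPKM at 12 h, -8.66 at 24 h and, by 48 h, 29.7 FPKM. The pooled SDs were 40.5, 7.64 and 22.8, so the difference was within 1 SD at 12 h and beyond it, in opposite directions, at 24 and 48 h. Over the same times Dynlrb1 differed by -91.1, -90.7 and -93.7 FPKM. The largest single gains were those of Dynlt3, 40.7 FPKM at 12 h and 35.9 at 48 h, against 1.62 at 24 h. At 12 h the Dynlt3 difference stood beside a Dynll2 difference of -34.3 FPKM, which was smaller than the Dynll2 pooled SD of 35.7. No other light chain passed the limma test as higher in HET at any time. At 12, 24 and 48 h 0.00581%, 0.00581% and 0% of all genes passed, and Dynlrb1 itself did only at 24 h. With so few calls, that test cannot show that the other light chains stayed level. The light chains differ in the site they occupy on dynein, so FPKM summed over kinds describes transcripts and not complexes.

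**Figure D3:**
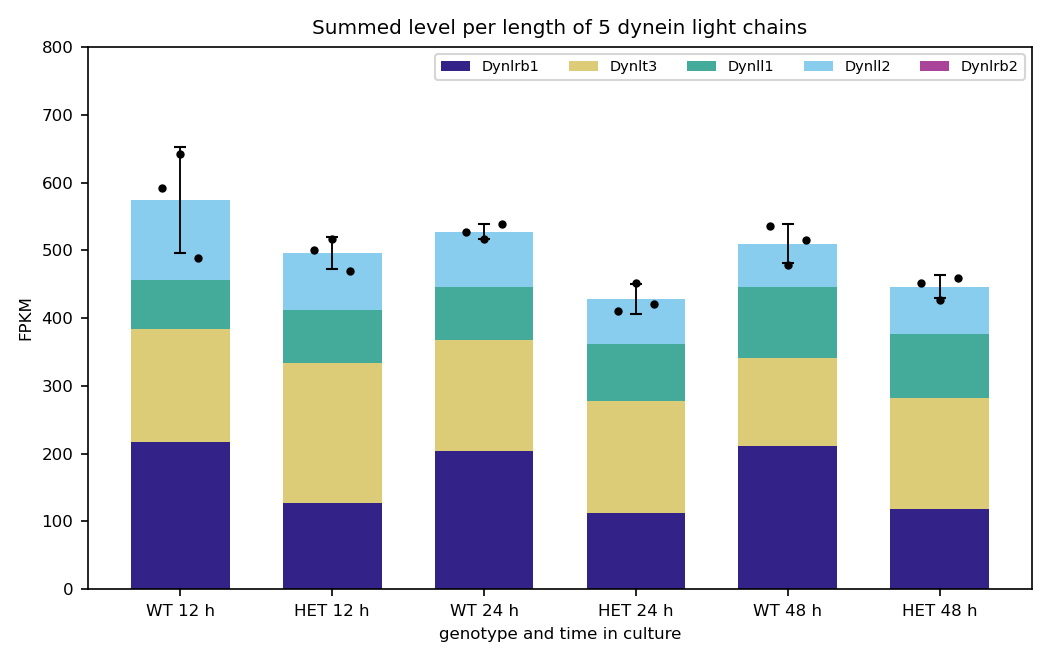
Mean FPKM of the 5 light chain genes stacked for each genotype and time (x axis); points are the summed FPKM of single cultures and bars their mean ± SD (n = 3). The Dynlrb1 block is smaller in each HET column, 127 ± 15.05 FPKM for both roadblock genes at 12 h against 218 ± 26.5 in WT, and Dynlrb2 is too small to see.

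Some of the light chains changed with time in culture. In WT from 12 to 48 h the normalized counts of Dynll1 rose by 0.56 on the log2 scale (95% interval 0.36 to 0.75), with a limma adjusted p of 2.11e-04, and Dynlt3 fell by 0.36 (-0.66 to -0.07), with an adjusted p of 0.0397. These were the 2 members that passed, in a comparison where 47.1% of all genes did. Of the genes that passed, 5152 rose and 2946 fell, against 4177 and 3760 in the plain adjusted columns, a second scaling that the authors deposited. The median of all genes moved by 0.11 in the normalized counts and 0.0069 in the plain columns. The markers of several cell types changed in the same comparison: all 5 proliferation markers rose (median 2.24), 4 of 6 fibroblast markers rose (median over the 6 of 1.48), and 2 of 5 macrophage markers rose and 1 fell. Of the endothelial markers 3 of 5 fell, of the Schwann and satellite glia markers 4 of 10 fell and 1 rose, and of the sensory neuron markers 10 of 16 fell and 3 rose. Their part in the changes of the light chains was not tested. Relative to the shift of the median Dynll1 still lay above the median gene and Dynlt3 below it. The Dynlt3 call was lost without any 1 of 5 of the 6 libraries (all but WT 48 h replicate 3), the adjusted p then reaching 0.153, and after quantile normalization it was 0.0784.

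Dynll2 was lower at 48 h than at 12 h in WT by -0.88 (95% interval -1.65 to -0.12) with a limma adjusted p of 0.0539. The authors' deposited table gives -0.90 with an adjusted p of 0.0183, in a comparison where it called 7803 genes. The WT ranges of Dynll2, 7969 to 15708 at 12 h and 5118 to 8691 at 48 h, overlapped. Dynlrb2 differed by 0.83 (-0.22 to 1.88, limma adjusted p 0.180). Dynlrb1 differed by -0.04 (-0.30 to 0.22) in WT and by -0.10 (-0.36 to 0.16) in HET, and neither interval excludes 0.

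In HET from 12 to 48 h none of the 5 passed, where 14.2% of all genes did. Dynll1 differed by 0.25 (95% interval 0.05 to 0.44, limma adjusted p 0.0796) and Dynlt3 by -0.34 (-0.63 to -0.04, adjusted p 0.105). Without HET 48 h replicate 3 both passed, at 0.33 with an adjusted p of 0.0148 and at -0.48 with an adjusted p of 0.0155. The 48 h to 12 h change was 0.31 smaller in HET than in WT for Dynll1 (interval of the difference -0.59 to -0.03), with an unadjusted p of 0.0309 and a limma adjusted p of 0.548. For the other 4 genes the difference between the genotypes in this change lay between -0.16 and 0.64. No gene of the table passed this test (0%), with 1534 at an unadjusted p under 0.05 and 0 passing with the replicate block. From 12 to 24 h none of the 5 passed in WT, where 3.62% of all genes did, or in HET, where 18.9% did. Dynlt3 in HET differed by -0.33 over that time, with a limma adjusted p of 0.104. All these time comparisons within a genotype share the 12 h samples.

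The order of the 6 groups by mean differed between the genes. Dynlrb1 ran from 6195 in WT at 12 h to 3204 in HET at 24 h, with a gap only between the lowest WT group and the highest HET group. Dynll1 ran from 8847 in WT at 48 h, apart from the next group, down to 6026 in WT at 12 h. Dynlt3 ran from 18513 in HET at 12 h down to 11556 in WT at 48 h, each apart from its neighbour in this order but not from all groups. HET at 12 h (from 17002) overlapped HET at 48 h (to 17779), and WT at 48 h (to 12170) overlapped HET at 24 h. Neighbouring groups of Dynll2 and of Dynlrb2 overlapped throughout.

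Other light chain genes did not pass between the genotypes. Of 10 listed, 6 were measured: Dynlt1a and Dynlt1f, copies of the other TCTEX chain that belong to a cluster of near-identical genes and are uncertain for that reason; Tctex1d1 and Tctex1d2, TCTEX relatives; and Dnal1 and Dnal4, axonemal light chains. None of the 6 passed between genotypes at 12, 24 or 48 h or on average, where 0.00581%, 0.00581%, 0% and 0.0174% of all genes did. Their median averaged log2 difference was -0.03, against -0.02 for all genes. The averaged differences were -0.11 for Dynlt1a, 0.28 for Dynlt1f, 0.023 for Tctex1d1, -0.04 for Tctex1d2, -0.17 for Dnal1 and -0.017 for Dnal4. At single times the largest were 0.67 for Dynlt1f at 12 h (95% interval 0.14 to 1.20, unadjusted p 0.0168, limma adjusted p 0.577) and 0.50 for Tctex1d1 at 48 h (-0.16 to 1.17, adjusted p 0.363), both larger than the Dynlt3 differences at those times. From 12 to 48 h in WT all 6 passed, where 47.1% of all genes did: Tctex1d1 fell by 1.72 and the others rose by 0.56 to 0.75. In HET, where 14.2% of all genes passed, Tctex1d1 fell by 1.05 (limma adjusted p 0.0379) and Dnal4 rose by 0.35 (adjusted p 0.0487).

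**Figure D4:**
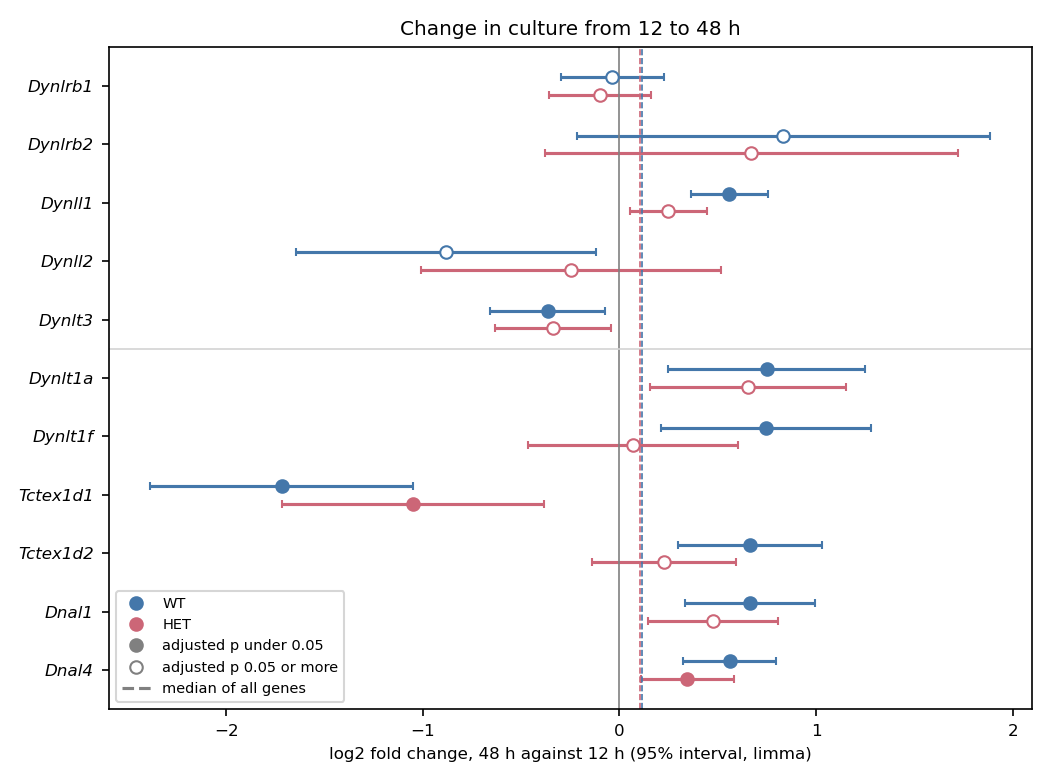
Log2 fold change of 48 h against 12 h (x axis) in WT and HET cultures for the 5 light chain genes (above the line) and 6 further ones (below it), with 95% intervals from limma; filled points had an adjusted p under 0.05 and dashed lines mark the median of all genes, 0.11 in WT and 0.10 in HET. Dynll1 lies to the right of the median lines and Dynlt3 to the left in both genotypes, and Dynlrb1 lies near 0.

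The larger dynein 1 chains, of which the intermediate chains carry the light chains, did not pass between genotypes either. The averaged log2 difference was -0.17 (95% interval -0.42 to 0.07) for Dync1h1, the heavy chain. It was 0.21 (0.049 to 0.37) for Dync1i1, the intermediate chain enriched in neurons, and 0.14 (0.0078 to 0.27) for Dync1i2, the widely expressed one. The light intermediate chains, which link dynein to cargo adaptors, differed by 0.077 (-0.011 to 0.16) for Dync1li1 and 0.084 (0.0018 to 0.17) for Dync1li2. Of the 5, 3 had an unadjusted limma p under 0.05, as had 13.5% of all genes. None had an adjusted limma p under 0.05, against 0.0174% of all genes. At 48 h the normalized counts of Dync1i1 were 4751, 4438 and 5544 in WT and 6140, 6076 and 7692 in HET. Dync1i1 was thus higher in HET without overlap, as were 9.57% of all genes. Its log2 difference was 0.43 (0.15 to 0.71), with a limma adjusted p of 0.0840, and of 0.0226 with the replicate block, under which 12.3% of all genes passed. Dync1i1 fell from 12 to 48 h by 0.62 in WT (adjusted p 0.00127) and by 0.46 in HET (adjusted p 0.0332). The part of the cell type markers given with Dynlt3 and with time in these values was not tested.

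Among 12 dynactin subunits, the cofactor that dynein needs for long runs, none passed in the averaged comparison. Of these, 11 had a positive averaged difference, with a median of 0.072 against -0.021 for all genes. At single times 11 were positive at 12 h, 9 at 24 h and 7 at 48 h (medians 0.12, 0.016 and 0.035). With the replicate block at 48 h, under which 12.3% of all genes passed, 1 of the 12 was higher in HET. All 4 dynein 2 chains, which serve transport inside cilia, had a negative averaged difference, with a median of -0.06. At single times 3 of 4 were positive at 12 h and at 24 h (medians 0.050 and 0.053), and none at 48 h (-0.27). With the replicate block at 48 h, under which 12.3% of all genes passed, 1 of the 4 was lower in HET. The 4 roadblock-fold genes of the Ragulator complex, which holds mTORC1 at lysosomes, had a median of 0.068. The 12 genes for DYNLL partners and for ATMIN, the transcription factor known to drive Dynll1, all had a negative averaged difference, with a median of -0.06. At single times 1 of the 12 was positive at 12 h, 2 were at 24 h and 6 at 48 h (medians -0.15, -0.067 and -0.0014). None of these genes passed in the averaged comparison, in which 3 of all genes (0.0174%) did.

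The genes whose normalized counts ran most like each member over the 18 samples, on the log2 scale, are given as a description of shared libraries, times and genotypes. For Dynll1 they were D8Ertd738e (Pearson r 0.99), Psmb3 (0.98), a proteasome subunit, and Rnf181 (0.98), and for Dynlt3 they were Eif4a2 (0.98), a translation initiation helicase, Arl6ip1 (0.96) and Scg5 (0.96). For Dynll2 they were Desi1 (0.98) and the 14-3-3 genes Ywhae (0.97) and Ywhaz (0.97). Dynlrb1 had no such close companion, with A230057D06Rik (0.72), Cttnbp2 (0.68) and Ifi204 (0.67) nearest, nor had Dynlrb2, with Lias (0.73), Ndufaf7 (0.72) and Fam57a (0.72). The most opposite genes were Slc15a2 (-0.77) and Rsph3b (-0.71) for Dynlrb1, Itga2b (-0.71) and Neat1 (-0.71) for Dynlrb2, Arid5b (-0.96) and Pld5 (-0.96) for Dynll1, Ttc33 (-0.94) and Trappc8 (-0.93) for Dynll2, and Lrrc61 (-0.96) for Dynlt3. Between Dynlrb1 and the other members r ran from -0.43 with Dynlrb2 to 0.15 with Dynll2 over the 18 samples.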

How the data were processed

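RNA from DRG neuron cultures was sequenced in 18 samples. The aligner, counter and gene annotation are not given in the sources used here. The submitters' processing notes name CASAVA 1.8.2, edgeR and the mm10 build. The single deposited table gives, per the file headers, the authors' normalized count for each sample, a signal that held no whole numbers and no 0, an unlabelled signal column per sample (plain adjusted columns) and FPKM. It also holds the authors' log2 fold changes and the authors' p-values, read here for comparison only. A further 24 per-sample columns were not used. The plain columns spanned 15 of 17 possible dimensions, so 2 directions had been removed by a method the headers do not name. The fit does not take these into account, so its residual degrees of freedom are too many and its intervals and p-values may be too small. Group explained 19.5% of these directions and replicate number 48.4%. Depth is unknown, and no counting interval or floor was computed.

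Groups and replicate numbers came from the sample titles. Values were fitted as log2(normalized count + 1), a scale that understates changes of low genes, in limma 3.58.1 (R 4.3.3), using 1 coefficient per group over 18 samples and eBayes with its trend option (residual degrees of freedom 12, prior 4.97). A minimum mean of 1 removed 0 genes, and p-values had Benjamini-Hochberg adjustment over 17198 genes within each of 9 comparisons and a threshold of 0.05. The code was tested on simulated data. FPKM sums were described without a test. Sequences were read with Python 3.11.15 and figures drawn with matplotlib 3.10.9. The members and gene lists were chosen with earlier results of these data known.

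Named genes were the 5 members, the other light chains and dynein 1 chains, and for each member the 3 most and 2 least correlated genes whose mean normalized count reached 100. Of the genes this rule names, 1 is not reported here. The replicate number was tried as a block with 6 residual degrees of freedom. Deviations of same-numbered samples of the 2 genotypes correlated at 0.21 to 0.46 across genes at 48 h (3 pairs), and this block is therefore given beside genotype results at 48 h where it changed a call or a count; it changed none for Dynlrb2, Dynll1, Dynll2 and Dynlt3. At 12 h (0.032 to 0.19), at 24 h (-0.21 to 0.26) and between times, not every pair exceeded 0.1. Alternatives were another pseudocount, stricter and absent filters, the plain columns, FPKM, quantile normalization, only the samples compared, the removed directions as covariates and leaving out each sample.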

Additional observations from a re-analysis of the deposited data

How the results depend on the processing

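The averaged Dynlrb1 difference kept its direction and its call under every alternative run, from -0.87 to -0.79 on leaving out single libraries. The exact permutation p for Dynlrb1 stayed at 0.00025 without any library, which was fixed in advance because the genotypes did not overlap at any time. At single times its adjusted p crossed 0.05 with the setting: at 12 h 0.0376 in the plain adjusted columns, at 24 h 0.896 when only the 6 samples compared were fitted and 0.152 with the removed directions as covariates, and at 48 h 0.0320 in the plain columns, 0.0366 after quantile normalization and 0.0402 with the removed directions. For WT from 12 to 48 h Dynll2 had 0.0414 in the plain columns and 0.0213 with only the samples compared, and for HET Dynlt3 had 0.0489 in the plain columns. Depth is unknown, so no detection limit can be given for Dynlrb2, the lowest member. The filter removed no genes, so leaving it out changed nothing, and the averaged comparison already used all 18 samples.

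Counts of genes passing moved as follows. At 12 h they were 2 in the plain columns and 0 in FPKM, against 1. At 24 h they were 0 with only the samples compared and 0 with the removed directions, against 1. At 48 h they were 1 in the plain columns, 276 after quantile normalization and 1 with the removed directions, against 0. The averaged comparison had 5 in FPKM against 3. For HET from 12 to 48 h the count was 1596 after quantile normalization and 0 with only the samples compared, against 2442, and for WT from 12 to 24 h it was 1132 with the removed directions, against 622. The cause was not tested.

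With the replicate block, the counts were 17 at 12 h, 0 at 24 h, 2120 at 48 h, 553 for the averaged comparison, 1621 for WT from 12 to 24 h and 5301 for HET from 12 to 48 h. The block gave Dynlrb1 an adjusted p of 0.0370 at 12 h and 0.157 at 24 h. It also gave Dynll2 0.00165 for WT from 12 to 48 h, for HET over the same time Dynll1 0.0212 and Dynlt3 0.0141, and for HET from 12 to 24 h Dynlt3 0.0364. With it 4 of the 6 other light chains passed in WT from 12 to 48 h, without Dynlt1a (0.0810) and Dynlt1f (0.0560). For comparisons over time the block joined same-numbered samples of a genotype. Replicate 3 exists only at 48 h, so with this block it does not inform the changes from 12 to 48 h. Leaving out HET 48 h replicate 3 without the block gave HET limma adjusted p of 0.0148 for Dynll1 and 0.0155 for Dynlt3. Except at 48 h between genotypes, samples may share only a number.

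Leaving out single libraries, the counts ran from 0 to 2 at 12 h, 0 to 1 at 24 h, 0 to 931 at 48 h, 0 to 197 for WT and 1141 to 2915 for HET from 12 to 24 h, and 0 to 4886 for HET from 12 to 48 h (4886 without HET 48 h replicate 3). The summed FPKM difference ran from -120.9 to -44.1 at 12 h, -111 to -90.8 at 24 h and -79.8 to -50.9 at 48 h. With the removed directions, 3 differences near 0 changed sign: Dynlt3 between genotypes at 24 h (-0.020), Dynlrb2 at 48 h (-0.015) and Dynlt3 in WT from 12 to 24 h (0.013). So did these on leaving out single libraries, none past the threshold: between genotypes, Dynlrb2 at 12 h (-0.20 to 0.79), Dynlrb2 at 48 h (-0.0086 to 0.44), Dynll2 at 24 h (-0.60 to 0.058), Dynll2 at 48 h (-0.11 to 0.37), Dynlt3 at 24 h (-0.10 to 0.15) and Dynll1 averaged (-0.012 to 0.042). Over time they were Dynlrb1 in WT to 48 h (-0.14 to 0.021), Dynlt3 in WT to 24 h (-0.10 to 0.086) and Dynll2 in HET to 48 h (-0.48 to 0.058). In the genotype difference of the change to 48 h they were Dynlrb1 (-0.12 to 0.043), Dynlrb2 (-0.63 to 0.36) and Dynlt3 (-0.12 to 0.13).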
